A study of Mus musculus with 17 samples.

Results

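Integrin alphaIIb-beta3 is the fibrinogen receptor of megakaryocytes and platelets, and its levels and those of its activators were followed by RNA sequencing in mouse fetal liver cells. The 10 genes were taken by name from the deposited count tables: the subunits Itga2b and Itgb3, the related subunits Itga2, Itga6 and Itgb1, and the activators Tln1, Fermt3, Rasgrp2, Rap1b and Apbb1ip. All 10 were found among the 46880 genes listed in all 3 tables, and all 10 passed the filter on low counts in both tables that were tested.

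All cells came from E12.5-13.5 embryos of a B6J.129(Cg) mouse strain with a CAG-driven cas9 and EGFP knock-in at Gt(ROSA)26Sor, so every group shares that background. In 14 libraries the cells had received sgGata1, a guide for the Gata1 gene, and are called Gata1s cells in the labels. Gata1s is the name of a truncated GATA1, a transcription factor of blood cells. These were LUC, a luciferase control (n = 3), and Arid3a, a transgene for the transcription factor ARID3A (n = 3), both with doxycycline at 1 µg/mL for 48 h, and sh-ctrl, a control hairpin (n = 3), shArid3a, a hairpin against Arid3a (n = 2), and miR-125b (n = 3), all with doxycycline at 1 µg/mL for 10 days. The WT group (n = 3) carried a luciferase guide (sgLuc) and a luciferase hairpin (shLuc) and has no treatment in its label. No label says whether libraries of a group came from separate embryos or cultures, so p-values measure the spread between these libraries, which may be technical. The cells are bulk cultures, in which fewer cells of a type and less RNA per cell cannot be told apart.

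In the resting platelet, alphaIIb-beta3 has a low affinity for its ligands. Agonist receptors raise calcium and diacylglycerol, and the exchange factor CalDAG-GEFI (Rasgrp2) then loads the small GTPase RAP1B (Rap1b) with GTP. RAP1 brings talin (Tln1) to the beta3 tail, an event in which the adaptor RIAM (Apbb1ip) takes part in some cells, and talin with kindlin-3 (Fermt3) switches the integrin to its high-affinity state. Integrin alpha2-beta1 (Itga2, Itgb1) binds collagen and alpha6-beta1 (Itga6, Itgb1) binds laminin. Itga2b, whose product is CD41, is among the earliest markers of the megakaryocyte lineage.

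Total counts per library were 31339238 to 38678649 in LUC and Arid3a, 31992089 to 40859301 in sh-ctrl, shArid3a and miR-125b, and 16362439 to 19212193 in WT. Levels are CPM, the counts scaled to library size, with the trimmed mean of M-values (TMM) within each table. Arid3a itself, read as a check of the labels, was at 67.2, 64.0 and 70.1 CPM in LUC and at 58.3, 74.3 and 80.1 CPM in the libraries labelled Arid3a, a log2 difference of 0.08 (SE 0.12, edgeR adjusted p = 0.737), so its level did not set the libraries labelled Arid3a apart from LUC. It was at 45.1, 56.3 and 57.2 CPM in sh-ctrl, at 20.4 and 18.9 in shArid3a (log2 fold change -1.43, SE 0.20, edgeR adjusted p = 0.0368, a call lost with 5 rRNA-like genes left out) and at 7.14, 9.75 and 10.0 in miR-125b (log2 fold change -2.56, SE 0.18, edgeR adjusted p = 0.00028). Counts of all 16 megakaryocyte and platelet markers were found in each group, with Pf4 the most abundant of the list in each. Some were near the floor in the Gata1s groups. Mean Tubb1 was at 0.202 to 1.67 CPM there and at 21.7 CPM in WT, and mean Selp at 0.376 to 1.51 CPM and 6.55 CPM. The 16 markers summed to 1318 to 3337 CPM over the Gata1s libraries and to 1159 to 1388 CPM in WT.

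Itga2b and Itgb3 lie on the same chromosome. In GENCODE M21 (build GRCm38), Itga2b (ENSMUSG00000034664) spans chromosome 11 from 102453297 to 102470122 on the minus strand, and Itgb3 (ENSMUSG00000020689) spans chromosome 11 from 104608000 to 104670476 on the plus strand, 2.14 megabases away. Fermt3 (chromosome 19, 6998958 to 7019469, minus strand) and Rasgrp2 (chromosome 19, 6399340 to 6415216, plus strand) lie 0.584 megabases apart. Tln1 is on chromosome 4 (43531519 to 43562691, minus strand), Rap1b on chromosome 10 (117813871 to 117846035, minus strand) and Apbb1ip on chromosome 2 (22774094 to 22875653, plus strand). The remaining subunits are Itga6 on chromosome 2 (71745616 to 71858416, plus strand), Itgb1 on chromosome 8 (128685654 to 128733200, plus strand) and Itga2 on chromosome 13 (114833081 to 114932100, minus strand). Tln1, Fermt3 and Rasgrp2 each overlap a gene on the other strand (Creb3, Trpt1 and Gm14965). Itga6 overlaps 4 genes, Gm17250 and Gm13739 on the other strand and Gm13663 and Gm13662 on its own, and Itga2b overlaps Gm23563 on its own strand. The use of strand in the counting is not given in the sources used here, so the overlaps may have altered the counts of these genes, in a direction that is not known.

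Because 1 group expressed miR-125b, the genes' 3′ untranslated regions were searched for matches to its seed, bases 2 to 8 of the mature strand. The mature miR-125b-5p of RefSeq (GRCm38.p6, encoded on chromosomes 9 and 16) is shown first with the seed in capitals, followed by the sites found in Itgb3 and Itga2 and, for comparison, the pair of 8-base matches in Arid3a, each 5′ to 3′ from GENCODE M21 transcripts with the match in capitals.
mmu-miR-125b-5p: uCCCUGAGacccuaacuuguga
Itgb3, chr11:104667379-104667403, plus strand: tccacagcctttgtcCTCAGGGgcc
Itgb3, chr11:104667831-104667855, plus strand: aggatggcaaggccaCTCAGGGgtc
Itgb3, chr11:104668274-104668298, plus strand: gtcagatgctttctcCTCAGGGgag
Itga2, chr13:114834914-114834938, minus strand: tgggaacaggggggtTCAGGGAcag
Arid3a, chr10:79952872-79952897, plus strand: agtggcctcctgtgcCTCAGGGAtga
Arid3a, chr10:79953805-79953830, plus strand: tccatgggtaactggCTCAGGGAtat

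The 3 Itgb3 matches are the 7 letters CTCAGGG, without the A that makes an 8-base match, and lie from base 249, base 701 and base 1144 of a 3′ untranslated region of 3331 bases. Itgb3 was the only one of the 10 genes with CTCAGGG, which 13.8% of 20731 genes with an annotated 3′ untranslated region hold at least once. Itga2 held 1 match of the form TCAGGGA, and 20.6% of the genes hold at least 1 match of any form (CTCAGGGA, CTCAGGG or TCAGGGA, sense strand only). The other 8 genes had none of these letters in their annotated regions, the longest of which ran from 164 bases (Itga2b) to 1940 bases (Rap1b). These shares take no account of the length of the region, and a match is a description of the letters and not a measured site. Beside the 2 matches shown, Arid3a, which is not among the 10 genes, held 4 of the form CTCAGGG and 1 of the form TCAGGGA.

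Promoters of 8 of the genes were given in the RefSeq table (GRCm38.p6, 250 bases before to 50 after the start). Those of Itga2b and Tln1 are shown, whose TMM-scaled levels differed without overlap in each comparison with a control. That of Fermt3, whose TMM-scaled levels overlapped in each, is shown as well. All are given 5′ to 3′ on the gene's strand. Capitals mark the ETS-type letters CGGAAG or AGGAAG and the RUNX-type letters TGTGGT or TGCGGT on either strand.
Itga2b, chr11:102469834-102470133, minus strand: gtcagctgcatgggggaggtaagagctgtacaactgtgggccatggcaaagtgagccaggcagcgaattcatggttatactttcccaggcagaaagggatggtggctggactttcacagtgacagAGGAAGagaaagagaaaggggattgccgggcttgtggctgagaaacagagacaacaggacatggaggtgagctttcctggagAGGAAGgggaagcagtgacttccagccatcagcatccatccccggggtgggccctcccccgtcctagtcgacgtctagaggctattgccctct
Tln1, chr4:43562534-43562833, minus strand: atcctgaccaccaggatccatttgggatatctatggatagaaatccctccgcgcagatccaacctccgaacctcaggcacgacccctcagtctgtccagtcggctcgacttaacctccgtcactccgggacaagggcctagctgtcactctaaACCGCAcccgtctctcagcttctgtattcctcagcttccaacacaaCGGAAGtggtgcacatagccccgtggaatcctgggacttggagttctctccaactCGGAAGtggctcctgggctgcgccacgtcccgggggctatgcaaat
Fermt3, chr19:7019420-7019719, minus strand: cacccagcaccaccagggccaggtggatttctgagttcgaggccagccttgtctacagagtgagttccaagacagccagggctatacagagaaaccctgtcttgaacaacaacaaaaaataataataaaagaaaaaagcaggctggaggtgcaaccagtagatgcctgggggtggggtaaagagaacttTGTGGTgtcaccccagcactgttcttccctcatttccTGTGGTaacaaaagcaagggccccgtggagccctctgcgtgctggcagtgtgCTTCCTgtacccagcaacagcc

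Itga2b held 2 ETS-type matches, from bases -125 and -43 relative to the start, Tln1 held 2, from bases -51 and 5, and 1 RUNX-type match, and Fermt3 held 1 ETS-type and 2 RUNX-type matches. ETS-type matches were also found for Itgb1, Rasgrp2, Rap1b and Apbb1ip, and a RUNX-type match for Rap1b, so these letters were not particular to the genes shown. Itga2 had none of them. None of the 9 promoters of the 8 genes, Rasgrp2 having 2, held a GATA-type match on either strand, that is AGATAA or TGATAA, or either of them with a final G in place of the last A. Over 32851 promoters of the same length, 46.5% held an ETS-type match, 22.4% a RUNX-type match and 29.8% one of the GATA-type letters. A lack of matches says only that these letters are not in these windows. The windows follow the RefSeq starts, which can differ from those of GENCODE M21. That of Itga2b lies almost wholly inside its GENCODE M21 span, and those of Rasgrp2 lie inside theirs. Positions and matches may therefore differ with another start.

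Both subunits of the fibrinogen receptor fell with miR-125b against sh-ctrl. In shArid3a their levels lay below sh-ctrl, and in the libraries labelled Arid3a above LUC, but neither of these differences passed the edgeR test over all genes. Itgb3, the beta3 subunit, was at 463, 355 and 423 CPM in LUC and at 854, 661 and 702 CPM in the libraries labelled Arid3a. It was at 391, 390 and 402 CPM in sh-ctrl, at 136 and 160 CPM in shArid3a and at 69.9, 130 and 168 CPM in miR-125b. Each of the 3 comparisons with a control showed no overlap between the groups for Itgb3, and the sh-ctrl libraries lay close together.

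The log2 fold change of Itgb3 was 0.84 (SE 0.13) for the libraries labelled Arid3a against LUC, -1.41 (SE 0.30) for shArid3a and -1.68 (SE 0.26) for miR-125b against sh-ctrl. Only the last passed the test over all genes, with an edgeR adjusted p of 0.0060. The adjusted p was 0.0760 for the libraries labelled Arid3a and 0.0989 for shArid3a. The fall with miR-125b was called under all 15 alternative settings tried, with log2 fold changes from -1.98 to -1.40 and adjusted p from 3.4e-10 to 0.0244.

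Itga2b, the alphaIIb subunit, was at 1191, 1239 and 1391 CPM in LUC and at 1862, 1691 and 1636 CPM in the libraries labelled Arid3a. It was at 1650, 1355 and 1531 CPM in sh-ctrl, at 821 and 905 CPM in shArid3a and at 656, 1010 and 1151 CPM in miR-125b. No comparison with a control showed overlap, and the miR-125b libraries were the most spread out, with replicate 1 the lowest. The log2 fold changes were 0.44 (SE 0.08, edgeR adjusted p = 0.0837) for the libraries labelled Arid3a, -0.81 (SE 0.23, edgeR adjusted p = 0.102) for shArid3a and -0.69 (SE 0.20, edgeR adjusted p = 0.0329) for miR-125b. The call with miR-125b held under 11 of 15 alternatives. It was lost without sh-ctrl replicate 1 (adjusted p = 0.0693), sh-ctrl replicate 3 (0.0912), miR-125b replicate 1 (0.0734) or miR-125b replicate 2 (0.0589).

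**Figure D1:**
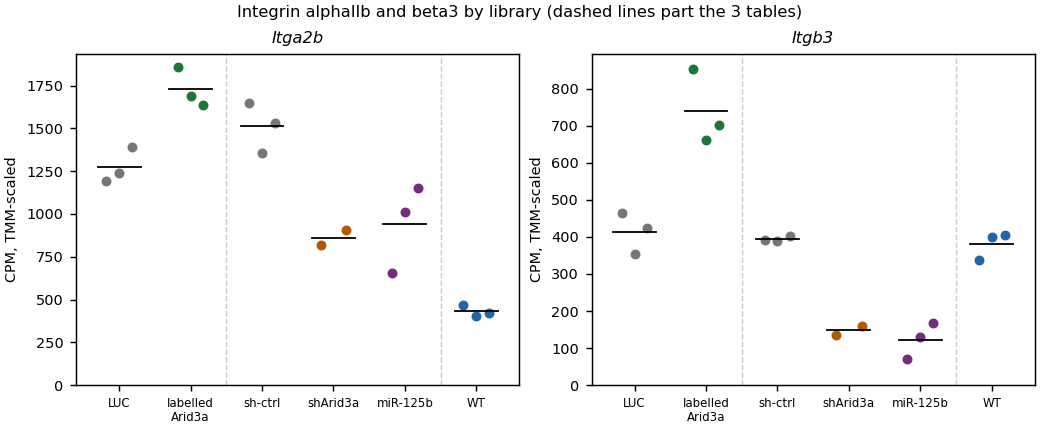
Levels of Itga2b and Itgb3 in each library (points, CPM scaled by TMM within a table) with the group mean (line). Itgb3 lies between 69.9 and 168 CPM in shArid3a and miR-125b and between 336 and 854 CPM in all other groups, and WT has the lowest Itga2b.

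In these libraries the beta3 transcript differed from its control by more than the alphaIIb transcript did. This ratio was chosen after the values were seen. Per kilobase of exon, Itga2b exceeded Itgb3 by a ratio of 2.78, 3.78 and 3.55 in LUC and of 2.36, 2.77 and 2.52 in the libraries labelled Arid3a. The ratio was 4.57, 3.76 and 4.12 in sh-ctrl, 6.51 and 6.10 in shArid3a and 10.2, 8.42 and 7.40 in miR-125b. In each comparison with a control the groups did not overlap, with the lower ratio, by a narrow margin, in the libraries labelled Arid3a and the higher ratio in shArid3a and miR-125b. The log2 differences of the ratio were -0.39, 0.61 and 1.05, each with a two-sided exact permutation p of 0.1 (0.133 adjusted over 4 comparisons), the smallest these group sizes allow. The ratio of miR-125b was above that of shArid3a by 0.45 on the log2 scale (exact permutation p = 0.2). The ratio is taken within a library, so scaling between libraries does not enter it. Its absolute size depends on the exon lengths used (5454 bases for Itga2b and 5901 for Itgb3). The same lengths serve every library, so they do not alter the log2 differences between groups.

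**Figure D2:**
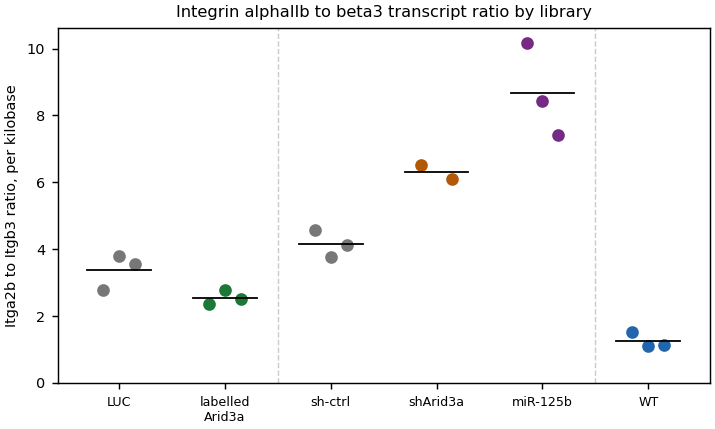
Ratio of Itga2b to Itgb3 per kilobase of exon in each library (points) with the group mean (line). The mean ratio is 8.66 in miR-125b, 6.31 in shArid3a, 4.15 in sh-ctrl, 3.37 in LUC, 2.55 in the libraries labelled Arid3a and lowest in WT, where the libraries are at 1.10 to 1.51.

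Itga6, the alpha6 subunit of laminin receptors, was at 184, 192 and 207 CPM in sh-ctrl, at 137 and 112 CPM in shArid3a and at 70.6, 85.6 and 114 CPM in miR-125b. Both treated groups lay below all sh-ctrl libraries. The log2 fold change was -1.11 (SE 0.18, edgeR adjusted p = 0.0061) with miR-125b, called under all 15 alternatives, and -0.64 (SE 0.20, edgeR adjusted p = 0.110) with shArid3a. In the other table Itga6 was at 224, 188 and 208 CPM in LUC and at 180, 227 and 235 CPM in the libraries labelled Arid3a. These groups overlapped, with a log2 difference of 0.05 (SE 0.12, edgeR adjusted p = 0.841).

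Itgb1, the beta1 subunit that pairs with alpha2 and alpha6, was at 260, 231 and 238 CPM in LUC and at 277, 318 and 318 CPM in the libraries labelled Arid3a, without overlap (log2 fold change 0.32, SE 0.08, edgeR adjusted p = 0.0999). It was at 194, 234 and 205 CPM in sh-ctrl, at 223 and 203 CPM in shArid3a and at 168, 180 and 198 CPM in miR-125b. The log2 difference was 0.02 (SE 0.14, edgeR adjusted p = 0.952) for shArid3a and -0.21 (SE 0.13, edgeR adjusted p = 0.239) for miR-125b. Both groups overlapped sh-ctrl under TMM scaling. Under scaling by library totals the miR-125b libraries (150, 179 and 192 CPM) lay below all sh-ctrl libraries (206, 249 and 233 CPM). Over 15 alternatives the value for miR-125b ran from -0.40 to -0.14 and was not called. Itga2, the collagen-binding alpha2 subunit, had 9 to 52 counts in each Gata1s library (0.245 to 1.52 CPM), and a difference could not be detected at this depth in any comparison. Its log2 differences were -0.81 (SE 0.44) for the libraries labelled Arid3a, 0.24 (SE 0.73) for shArid3a and -0.71 (SE 0.67) for miR-125b.

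Among the activators, Tln1 (talin) differed from each control in the same direction as the receptor subunits. Tln1 was at 1299, 1321 and 1360 CPM in LUC and at 1780, 1865 and 1754 CPM in the libraries labelled Arid3a, and at 1042, 1281 and 1216 CPM in sh-ctrl, 963 and 723 CPM in shArid3a and 670, 810 and 947 CPM in miR-125b. The groups did not overlap in any comparison with a control. The log2 fold changes were 0.44 (SE 0.05, edgeR adjusted p = 0.0701), -0.48 (SE 0.20, edgeR adjusted p = 0.163) and -0.54 (SE 0.18, edgeR adjusted p = 0.0462). Only the fall with miR-125b was called. With the replicate number as a block over all libraries of the table, shArid3a included, its edgeR adjusted p was 0.0637. Without sh-ctrl replicate 2, sh-ctrl replicate 3, miR-125b replicate 1 or miR-125b replicate 2, and with no block, the adjusted p was 0.0969, 0.123, 0.137 and 0.0982.

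Kindlin-3, the partner of talin at the beta3 tail, stayed within a narrow range in the Gata1s cells under TMM scaling. Fermt3 was at 899, 961 and 1020 CPM in LUC, 946, 910 and 913 CPM in the libraries labelled Arid3a, 909, 984 and 834 CPM in sh-ctrl, 962 and 961 CPM in shArid3a and 793, 794 and 877 CPM in miR-125b. With this scaling, treated and control libraries overlapped in each comparison with a control. The log2 differences were -0.06 (SE 0.06), 0.08 (SE 0.14) and -0.15 (SE 0.13), none of them called (edgeR adjusted p = 0.645, 0.750 and 0.426). Under scaling by library totals the value for shArid3a was -0.11. With that scaling the miR-125b libraries (710, 789 and 849 CPM) lay below all sh-ctrl libraries (963, 1050 and 948 CPM). Over 15 alternatives the value for miR-125b ran from -0.33 to -0.10 and was not called.

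Rap1b, the GTPase upstream of talin, was at 656, 444 and 501 CPM in LUC, 715, 569 and 627 CPM in the libraries labelled Arid3a, 636, 514 and 532 CPM in sh-ctrl, 420 and 497 CPM in shArid3a and 403, 379 and 558 CPM in miR-125b. The shArid3a libraries lay below sh-ctrl, while the other groups overlapped their controls. The log2 differences were 0.26 (SE 0.15), -0.29 (SE 0.20) and -0.33 (SE 0.17), not called (edgeR adjusted p = 0.375, 0.373 and 0.185). Under scaling by library totals the fall with miR-125b was called (log2 fold change -0.52, edgeR adjusted p = 0.0466).

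Apbb1ip, the adaptor RIAM, had the opposite order to the receptor subunits in the hairpin and miR-125b table under TMM scaling. It was at 49.2, 50.1 and 51.0 CPM in sh-ctrl, at 67.7 and 55.2 CPM in shArid3a and at 66.7, 57.8 and 64.6 CPM in miR-125b. Both groups lay above all sh-ctrl libraries, with log2 differences of 0.29 (SE 0.14, edgeR adjusted p = 0.210) and 0.33 (SE 0.13, edgeR adjusted p = 0.0767), neither called. The separation depended on the scaling. Under library totals sh-ctrl was at 52.1, 53.5 and 58.0 CPM, and both groups overlapped it. They were then at 66.8 and 50.6 CPM (shArid3a) and at 59.7, 57.4 and 62.5 CPM (miR-125b). Over the alternatives tried the log2 differences were as low as 0.11 and 0.14. In the other table it was at 69.0, 61.5 and 67.6 CPM in LUC and at 67.9, 57.2 and 60.0 CPM in the libraries labelled Arid3a, which overlapped.

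Rasgrp2, the exchange factor CalDAG-GEFI, was near the bottom of the range in all Gata1s cells. It was at 3.11, 2.61 and 3.57 CPM in LUC, 3.14, 3.06 and 2.40 CPM in the libraries labelled Arid3a, 4.35, 6.24 and 9.20 CPM in sh-ctrl, 1.93 and 5.22 CPM in shArid3a and 1.85, 1.99 and 4.09 CPM in miR-125b. The miR-125b libraries lay just below sh-ctrl, and the other groups overlapped their controls. The log2 difference for miR-125b was -1.32 (SE 0.47, edgeR adjusted p = 0.0636). With the replicate block it was called (log2 fold change -1.35, edgeR adjusted p = 0.0107), as it was in 7 of 15 alternatives in all.

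**Figure D3:**
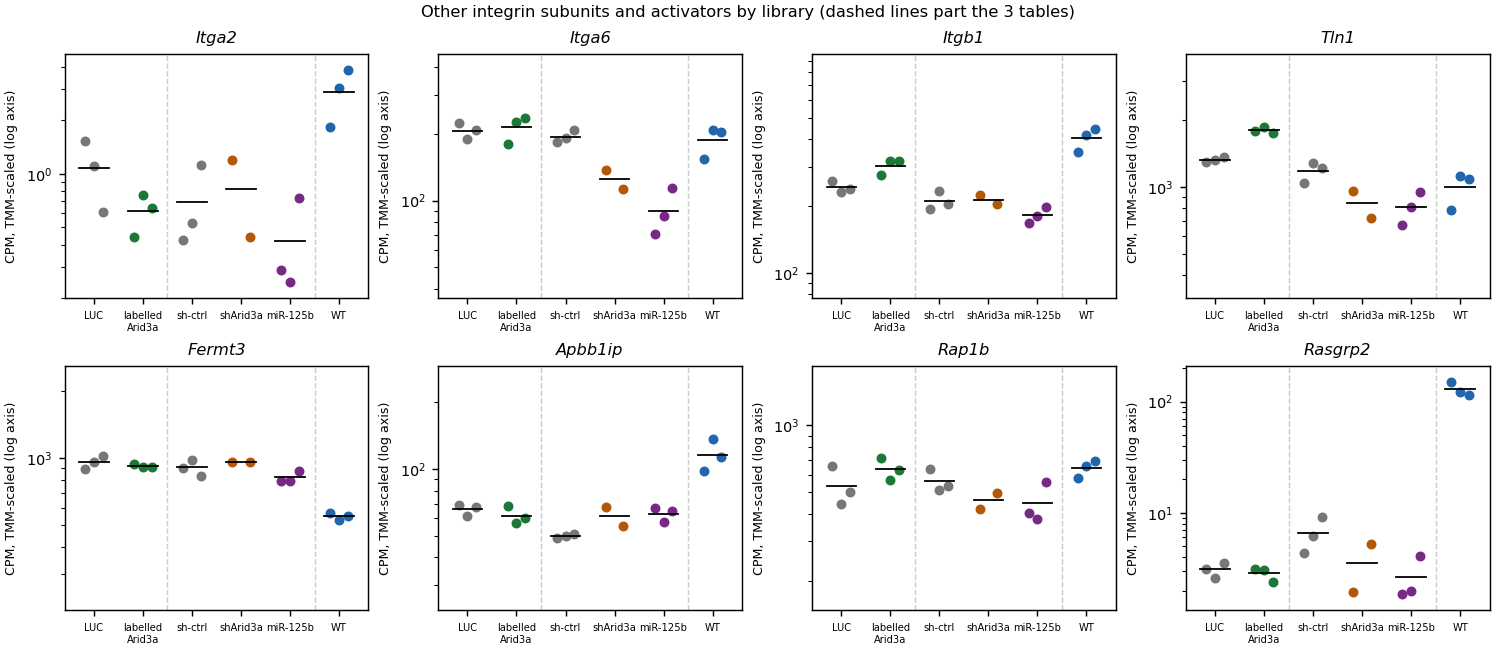
Levels of the other 8 genes in each library (points, CPM scaled by TMM within a table, log axis) with the group mean (line). Itga6 and Tln1 are lower in shArid3a and miR-125b than in sh-ctrl, Fermt3 keeps to 793 to 1020 CPM in the Gata1s groups, and Rasgrp2 is at 115 to 149 CPM in WT against 1.85 to 9.20 CPM elsewhere.

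Across the 10 genes, none was called in the libraries labelled Arid3a against LUC by edgeR, where 0% of 13495 genes were called and 21.4% had an unadjusted p under 0.05. Of the 10, 4 had an unadjusted p under 0.05 (Itga2b, Itgb3, Itgb1 and Tln1), and these 4 were the ones whose groups did not overlap, all higher, against 27.6% of all genes without overlap. The median log2 difference was 0.15 over the 10 genes and 0.01 over all genes tested. DESeq2 called these 4 genes and 1359 genes in all. Leaving out Arid3a replicate 1 gave edgeR calls for the same 4 genes (adjusted p from 0.00080 to 0.0032) and 3198 genes in all.

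With shArid3a, edgeR called none of the 10, against 0.0857% of 14004 genes. Unadjusted p was under 0.05 for 4 of the 10 (Itga2b, Itgb3, Itga6 and Tln1), against 25.8% of all genes. The groups did not overlap for 6 genes, 5 lower and 1 higher, against 43.9% of all genes, which is not far from the 6 of 10. The median log2 difference was -0.39 over the 10 and -0.02 over all genes. DESeq2 called Itga2b, Itgb3 and Itga6 (adjusted p = 0.0072, 9.2e-05 and 0.025) among 1600 genes.

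With miR-125b, 4 of the 10 were called, all lower (Itgb3, Itga6, Itga2b and Tln1), where 24.4% of all genes were called and 12.2% were called lower. With the replicate block 4 were called as well, Rasgrp2 in place of Tln1. The groups did not overlap for 6 of the 10, against 44.9% of all genes. The median log2 difference was -0.62 over the 10 and -0.03 over all genes. Scaling by library totals moved the median of all genes to -0.22 and the share of higher genes among the calls from 49.8% to 26.6%. Under that scaling the log2 fold changes were -1.86 for Itgb3, -1.30 for Itga6, -0.87 for Itga2b and -0.73 for Tln1, all further below 0 than the median of all genes.

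Between miR-125b and shArid3a, none of the 10 was called by edgeR or DESeq2, against 1.35% of all genes by edgeR. Itga6 alone had an unadjusted p under 0.05, at a log2 difference of -0.47 (SE 0.19, edgeR adjusted p = 0.291), against 14.5% of all genes. The groups did not overlap for Itgb1 and Fermt3, both lower with miR-125b, against 29.8% of all genes. Itgb3 differed by -0.27 (SE 0.28) and Itga2b by 0.12 (SE 0.22) on the log2 scale, less than the spread between libraries. The effects of shArid3a and of miR-125b against sh-ctrl share the 3 sh-ctrl libraries, so their values are given side by side only.

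**Figure D4:**
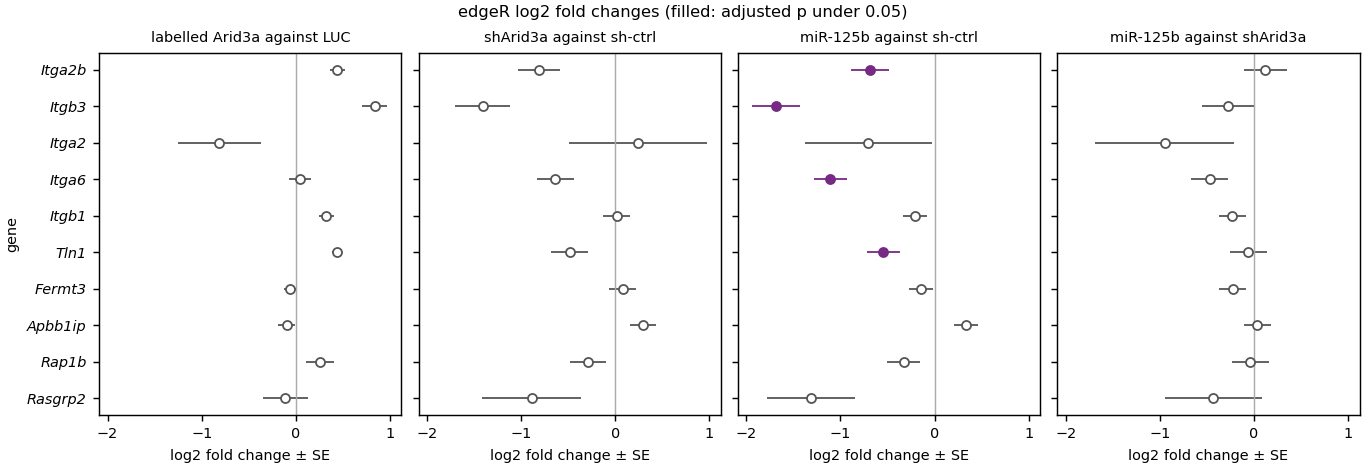
Log2 fold changes of the 10 genes with their standard errors in 4 comparisons (edgeR), filled where the adjusted p was under 0.05. Only Itga2b, Itgb3, Itga6 and Tln1 with miR-125b against sh-ctrl are filled, and Itga2 has the largest standard error in each comparison.

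Marker genes were called with miR-125b as well, to be read against the 24.4% of all genes called (12.2% lower, 12.1% higher). Of 16 megakaryocyte and platelet markers, 6 were called lower and 1 higher (median log2 difference -0.57), while their summed level was 1979 to 3337 CPM in sh-ctrl and 2224 to 2983 CPM in miR-125b, most of it Pf4 (973 to 2206 CPM in sh-ctrl, 1274 to 2115 CPM in miR-125b). Of these 16 genes, 4 (Gp1ba, Gp6, Vwf and Clec1b) are also in the pathway lists described next. Of 11 neutrophil and monocyte markers tested, 4 were called higher (median 1.97), with sums of 67.8 to 108 CPM in sh-ctrl and 96.1 to 176 CPM in miR-125b. Most of the sh-ctrl sum was Prtn3, with a mean of 69.4 CPM there and 63.4 CPM in miR-125b. Mean Mpo was at 0.198 CPM in sh-ctrl and 41.6 CPM in miR-125b. Of 11 erythroid markers tested, 4 were called lower (median -0.86), with sums of 416 to 671 CPM and 232 to 281 CPM, and of 11 mast cell and basophil markers tested, 2 were called higher (median 1.32), with sums of 431 to 529 CPM and 462 to 1417 CPM. Most of the mast cell and basophil sum was Gzmb, with a mean of 433 CPM in sh-ctrl and 744 CPM in miR-125b, whereas in WT Gzmb was at 56.4 CPM. In sh-ctrl Csf3r, Ly6c2, S100a9, Camp and Ngp were at 0 counts, and Slc4a1 was at 0 counts in sh-ctrl and miR-125b. Of 3 lymphoid markers tested none was called, with sums of 0.854 to 5.95 CPM over the Gata1s libraries. Of 3 hepatocyte, endothelial and stromal markers tested 1 was called higher, with sums of 22.6 to 64.2 CPM over the Gata1s libraries. Most of that sum was Pdgfrb in each Gata1s group (means of 21.6 to 54.1 CPM). With shArid3a no marker was called by edgeR, and 12 of the 16 megakaryocyte and platelet markers had lower values (median log2 difference -0.43) at sums of 2825 to 2971 CPM. The mast cell and basophil sum was 666 to 1064 CPM in shArid3a, above sh-ctrl and again mostly Gzmb (813 CPM). The hepatocyte, endothelial and stromal sum was 22.6 to 25.1 CPM, below the 31.5 to 53.3 CPM of sh-ctrl. That difference was mostly 1 gene, Pdgfrb, with means of 21.6 CPM in shArid3a and 38.7 CPM in sh-ctrl. In the libraries labelled Arid3a none was called either, with 9 of 16 at higher values (median 0.08) and sums of 1318 to 3018 CPM against 2114 to 2443 CPM in LUC. Their part in the results above was not tested.

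The wider pathway was described with 5 lists of 133 genes in all. In the libraries labelled Arid3a against LUC, none of 97 tested genes was called by edgeR, 59 had a higher and 38 a lower value, and the median log2 difference was 0.15 against 0.01 over all genes. With shArid3a none of 100 was called, 27 were at a higher and 73 at a lower value, and the median was -0.36 against -0.02. DESeq2 called 19 and 22 of the pathway genes in these comparisons, against 1359 of 13495 and 1600 of 14004 genes in all. With miR-125b, 27 of 100 were called lower and 9 higher, where 12.2% of all genes were called lower and 12.1% higher, and the median was -0.27 against -0.03.

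Receptors and G proteins that start integrin activation had 11 of 27 tested genes called lower and 1 higher with miR-125b, against 12.2% and 12.1% of all genes. Gp1ba, a subunit of the platelet receptor for von Willebrand factor, fell from 48.0 ± 7.35 to 15.3 ± 2.11 CPM (SD, n = 3 each, log2 fold change -1.65, edgeR adjusted p = 0.0047). Prkcb, protein kinase C beta, fell from 3.53 ± 1.28 to 0.152 ± 0.172 CPM, with 11, 2 and 2 counts in the miR-125b libraries (log2 fold change -4.56, edgeR adjusted p = 0.0062). Pik3cb, a catalytic subunit of phosphoinositide 3-kinase, fell from 48.0 ± 5.14 to 28.9 ± 4.93 CPM (log2 fold change -0.73, edgeR adjusted p = 0.013).

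The list of the RAP1 cycle, talin and kindlin relatives and adaptors had 6 of 25 tested genes called lower and 3 higher, against 12.2% and 12.1% of all genes, so the higher calls were at about the share over all genes. Rasgrp4, a relative of Rasgrp2, fell from 5.79 ± 1.23 to 0.985 ± 0.388 CPM (log2 fold change -2.55, edgeR adjusted p = 0.0068). Rap1gap2, which returns RAP1 to its GDP form, fell from 8.04 ± 1.80 to 1.44 ± 0.720 CPM (log2 fold change -2.47, edgeR adjusted p = 0.0088). Cib1, whose product binds the alphaIIb tail, rose from 44.7 ± 4.34 to 69.8 ± 7.20 CPM (log2 fold change 0.64, edgeR adjusted p = 0.012).

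Among the genes of outside-in signalling and the adhesion plaque, 7 of 27 were called lower and 3 higher, the higher calls again at about the 12.1% over all genes and the lower calls against 12.2%. Lims1, which encodes the adaptor PINCH1, fell from 176 ± 9.05 to 96.6 ± 8.23 CPM (log2 fold change -0.87, edgeR adjusted p = 0.0043). Parvb, beta-parvin, fell from 116 ± 17.1 to 49.4 ± 8.87 CPM (log2 fold change -1.23, edgeR adjusted p = 0.0046), and the kinase Src fell from 104 ± 20.6 to 44.3 ± 7.42 CPM (log2 fold change -1.23, edgeR adjusted p = 0.0056). PINCH and parvin are partners of integrin-linked kinase.

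Of 9 tested ligand genes, 2 were called lower and 2 higher, where 24.4% of all genes were called. Vwf, von Willebrand factor, fell from 14.1 ± 2.91 to 4.35 ± 2.60 CPM (log2 fold change -1.70, edgeR adjusted p = 0.017), and Thbs1, thrombospondin-1, fell from 49.9 ± 10.1 to 10.3 ± 7.41 CPM (log2 fold change -2.27, edgeR adjusted p = 0.021). Lamc1, a laminin chain, rose from 1.96 ± 0.863 to 8.36 ± 0.332 CPM (log2 fold change 2.10, edgeR adjusted p = 0.013). Of 12 other integrin subunits tested 1 was called, Itgal, the alpha subunit of the leukocyte integrin LFA-1, which fell from 186 ± 37.9 to 112 ± 15.8 CPM (log2 fold change -0.73, edgeR adjusted p = 0.020).

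**Figure D5:**
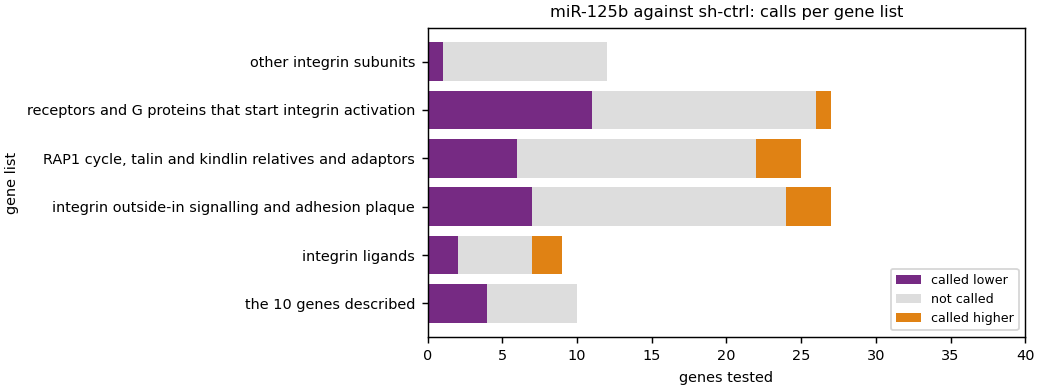
Genes called lower, not called and called higher with miR-125b against sh-ctrl (bars, number of genes tested), for the 10 genes and for 5 pathway lists. Lower calls outnumber higher calls in the lists of receptors and G proteins (11 against 1), of the RAP1 cycle (6 against 3) and of outside-in signalling (7 against 3), and the ligands have 2 of each.

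Between miR-125b and shArid3a, 3 pathway genes were called higher and 3 lower of 100, against 0.664% and 0.686% of all genes. Lamc1 was at 8.36 ± 0.332 CPM with miR-125b and 0.290 ± 0.243 CPM with shArid3a, near the floor with 17 and 4 counts in the shArid3a libraries. Actn1, the actin cross-linker alpha-actinin-1, was at 38.4 ± 20.5 and 4.23 ± 0.0978 CPM, and the kinase Fyn at 91.6 ± 8.79 and 45.6 ± 2.43 CPM. The log2 fold changes of Lamc1, Actn1 and Fyn were 4.82, 3.19 and 1.01 (edgeR adjusted p = 0.0090, 0.015 and 0.013). Lower were Prkcb (log2 fold change -4.46, edgeR adjusted p = 0.025), Lims1 (-0.67, 0.038) and Lat, a scaffold of platelet collagen receptor signalling (-0.84, 0.045).

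Over the 14 Gata1s libraries, Pearson's r of log2 CPM, centred within each table, was 0.943 between Itga2b and Itgb3. Among the 10 genes, Tln1 came next, with 0.837 to Itga2b and 0.878 to Itgb3, followed by Itga6 (0.724 and 0.848) and Rap1b (0.687 and 0.745). Itgb1 had 0.457 and 0.608, Fermt3 0.140 and 0.269, and Apbb1ip -0.723 and -0.734. Of 8145 genes ranked (average log2 CPM of at least 3 in both tables, predicted genes left out), those outside the 10 most like Itga2b were Syk (0.970), Emilin1 (0.958), Zswim6 (0.941) and Arhgap45 (0.940). Those most like Itgb3 were Pfkfb4 (0.965), Klf6 (0.958), Zswim6 (0.955) and Jarid2 (0.954). In these rankings Itgb3 held place 3 for Itga2b, and Itga2b held place 14 for Itgb3. Tln1 was at places 224 and 133, Itga6 at 872 and 263 and Rap1b at 1134 and 997, so many genes were closer. Rasgrp2 and Itga2 were below the cut on level and have no value. In the 8 hairpin and miR-125b libraries alone, Syk and Arhgap45 were again among the 4 genes nearest to Itga2b, with Mafg (0.977) and Mdm2 (0.975), and Pfkfb4 (0.995) was again nearest to Itgb3, with Trim25, Rgp1 and Ston2. The libraries share groups, scaling and depth, so these values describe the pattern of few groups.

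In WT the same genes had another balance. Itga2b was at 471, 405 and 420 CPM, below all 14 Gata1s libraries (656 to 1862 CPM), whereas Itgb3 was at 336, 399 and 404 CPM, inside their range. The Itga2b to Itgb3 ratio per kilobase was 1.51, 1.10 and 1.12 in WT. Rasgrp2 was at 149, 121 and 115 CPM with 2210 to 2449 counts, and its mean was 41.2 times the median of the Gata1s libraries, where 58 to 377 counts were found. No Gata1s library came near the WT level of Rasgrp2.

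Fermt3 was at 565, 526 and 549 CPM in WT, below all Gata1s libraries. Itgb1 (350, 420 and 444 CPM), Apbb1ip (98.0, 137 and 113 CPM) and Itga2 (1.83, 3.05 and 3.85 CPM) were above all of them. Tln1 (783, 1118 and 1088 CPM), Itga6 (153, 207 and 203 CPM) and Rap1b (578, 657 and 689 CPM) lay inside the Gata1s range. So 4 genes were above, 2 below and 4 inside, and each gene kept its position when all 17 libraries were scaled together. The WT libraries differ from the others in genotype, doxycycline, transgenes and table at once, which cannot be told apart, and no test was made. The neutrophil and monocyte markers summed to 19438 to 25381 CPM in WT, led by Lyz2 and S100a9, against 14.6 to 199 CPM in the Gata1s libraries. Mast cell and basophil markers summed to 1571 to 1810 CPM in WT against 282 to 1417 CPM, and lymphoid markers to 15.9 to 22.1 CPM against 0.854 to 5.95 CPM. Most of the mast cell and basophil sum was Gzmb in each Gata1s group (means of 320 to 813 CPM). In WT Gzmb was at 56.4 CPM, and Cpa3 led that list (470 CPM). Erythroid markers summed to 147 to 196 CPM in WT against 214 to 671 CPM. The part of these markers in the WT levels was not tested.

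Ordered by group means, Itgb3 was highest in the libraries labelled Arid3a (739 CPM), followed by LUC (414), sh-ctrl (394) and WT (380), which overlapped, then shArid3a (148) and miR-125b (123), which overlapped each other. Itga2b ran from the libraries labelled Arid3a (1730 CPM) through sh-ctrl (1512), LUC (1274), miR-125b (939) and shArid3a (863) to WT (432). Neighbours overlapped in that order apart from LUC and miR-125b, and shArid3a and WT. Tables were scaled separately, so levels set side by side across them are descriptions.

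Levels per kilobase of exon take gene length into account, though the order of genes depends on the lengths used. Per kilobase, mean levels in sh-ctrl were 351 CPM for Fermt3, 277 for Itga2b, 277 for Rap1b, 120 for Tln1 and 66.8 for Itgb3. They were 51.7 for Itgb1, 21.5 for Itga6, 6.76 for Apbb1ip, 0.533 for Rasgrp2 and 0.164 for Itga2. Lengths are those deposited with the WT table. Apart from Itga2, Fermt3 and Rap1b, they equal all annotated exon bases of the gene, not those of 1 transcript (12384 bases for Rasgrp2). Where the transcripts present are shorter, the level per kilobase is too low. With the exon lengths of GENCODE M21, Fermt3 was at 157 and Rap1b at 194, and Itga2b then came first. Itgb3 lay below Itgb1 in miR-125b (20.8 and 44.6) and in shArid3a (25.1 and 52.3), the reverse of sh-ctrl. In WT the order was Rap1b (317), Fermt3 (211), Tln1 (102), Itgb1 (99.1), Itga2b (79.2), Itgb3 (64.4), Itga6 (20.8), Apbb1ip (15.6), Rasgrp2 (10.4) and Itga2 (0.690). With the GENCODE M21 lengths Fermt3 was at 94.5 in WT and came after Tln1 and Itgb1.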

How the data were processed

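Reads were trimmed, aligned and counted by the authors with fastp, HISAT2 2.0.5 and featureCounts on build mm10, per the submitters' processing notes. The annotation release and the use of strand are not given in the sources used here. What the authors deposited are raw counts for each gene, not normalized, in 3 tables of 47069, 47069 and 47643 genes that were joined by Ensembl identifier. Groups were taken from the labels. The shArid3a libraries carry the numbers 1 and 3.

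After filterByExpr and TMM scaling, edgeR 4.0.16 (R 4.3.3) ran its quasi-likelihood test in each tested table on all groups of that table. Genes with a Benjamini-Hochberg adjusted p under 0.05 over all genes tested were called. DESeq2 1.42.0 was an alternative. Log scales used a prior count of 2. WT was not tested, as it lies in a table of its own. The fit was tested on simulated data. No pair of libraries matched within counting noise. Counts are reads without molecular identifiers.

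Whether replicate numbers pair libraries was checked by correlating deviations from group means. Same-numbered sh-ctrl and miR-125b libraries gave r = 0.500, 0.199 and 0.475, but miR-125b replicate 2 correlated more with sh-ctrl replicate 3 (0.284). The main tests, counts of calls and figures used the group only, without pairing. A fit with the replicate number as a block over all libraries of a table is given beside them as an alternative.

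The 10 genes, the lists and the rule for named genes (all 10, up to 3 called genes per list and comparison by smallest adjusted p, the 4 genes most like Itga2b and Itgb3) were chosen with earlier results of these data known. The Itga2b to Itgb3 ratio was added after the values were seen. Itga6 and Itgb3 had no promoter in the RefSeq table.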

Additional observations from a re-analysis of the deposited data

How the results depend on the processing

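Calls of the 10 genes, of all genes and of pathway genes depended on the tool and on single libraries. For the libraries labelled Arid3a against LUC (none called), DESeq2 called 4 of the 10, 1359 genes and 19 pathway genes, and no filter on low counts gave 1, 71 and 1. Leaving out 1 library gave 0 to 4, 0 to 3198 and 0 to 38, all calls coming without Arid3a replicate 1. For shArid3a against sh-ctrl (0, 12 and 0), DESeq2 gave 3, 1600 and 22 and no filter gave 3, 1237 and 19. The groups compared alone gave 1 of the 10 and 1 pathway gene, library totals gave 20 genes and 1 pathway gene, and a minimum of 10 counts or a robust spread gave 19 genes each. Leaving out 1 library gave 2 to 11 genes (5 without sh-ctrl replicate 2, 3 without shArid3a replicate 1), and leaving out 5 rRNA-like genes gave 0. For miR-125b against sh-ctrl (4, 3414 and 36), leaving out 1 library gave 2 to 5, 734 to 2872 and 10 to 28, with 734 genes without sh-ctrl replicate 3, 1766 without miR-125b replicate 1, 2032 without miR-125b replicate 3 and 2229 without miR-125b replicate 2. For miR-125b against shArid3a (0, 189 and 6), DESeq2 gave 737 genes and 14 pathway genes, no filter gave 715 and 21, the groups compared alone gave 3 pathway genes, and leaving out 1 library gave 12 to 329 genes (12 without shArid3a replicate 1, 26 without miR-125b replicate 2, 70 without miR-125b replicate 3, 109 without shArid3a replicate 3, 329 without miR-125b replicate 1) and 1 to 8 pathway genes. The cause of these changes was not tested. Where shArid3a was left with 1 library, it was assumed to vary like the other groups.

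Small log2 differences, none of them called, changed sign. Library totals turned Itgb1 (-0.17) and Fermt3 (-0.11) with shArid3a, and a minimum of 10 counts turned Itgb1 (-0.0090). Leaving out 1 library gave -0.027 to 0.17 for Itga6 and -0.22 to 0.0030 for Rasgrp2 in the libraries labelled Arid3a, and -0.060 to 0.089 for Itgb1 and -0.64 to 0.79 for Itga2 with shArid3a. Between miR-125b and shArid3a it gave -0.23 to 0.085 for Rap1b, -0.25 to 0.16 for Tln1, -0.98 to 0.45 for Rasgrp2, -0.11 to 0.19 for Apbb1ip, -0.57 to 0.0057 for Itgb3 and -0.050 to 0.32 for Itga2b.

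With the replicate block, counts of genes called were 0 for the libraries labelled Arid3a, 15 for shArid3a, 3687 for miR-125b against sh-ctrl and 255 for miR-125b against shArid3a. The block turned the log2 difference of Rap1b between miR-125b and shArid3a to 0.037, not called. Beside the calls of Tln1 and Rasgrp2 with miR-125b, the block changed no call of the 10 genes. Same-numbered LUC and Arid3a libraries correlated at 0.112, 0.378 and -0.152, and not every library correlated best with its own number. Without each library in turn, the log2 differences of the Itga2b to Itgb3 ratio kept their sign (0.93 to 1.16 for miR-125b against sh-ctrl). Under library totals or a joined scaling, 91 mean levels moved by less than the SD between libraries and 29 by more, by ratios of 0.897 to 1.11.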
